A study of Mus musculus with 12 samples.

Results

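The Notch and secretory fate genes described here are 10 genes given by symbol: the ligands *Dll1*, *Dll4* and *Jag1*, the receptors *Notch1* and *Notch2*, the DNA-binding partner *Rbpj*, the target *Hes1*, and the secretory lineage factors *Atoh1*, *Gfi1* and *Neurog3*. They were found through their Ensembl identifiers among the 38924 genes of the count files, of which 37607 could be given a symbol, and all 10 passed the filter on low counts that left 20311 genes for testing. RNA-Seq was carried out on proximal colon tissue from 12 female mice of 6 weeks of age on the C57BL/6 background, 1 library per mouse. The 6 APCMin/+ mice carried 1 mutant allele of *Apc* in every cell, an allele that leads to intestinal polyps later in life, and the 6 WT mice did not. Each mouse is called here by the name in its sample label. The study housed the genotypes in separate cages, so genotype and cage cannot be told apart.

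In Notch signalling, a Delta or Jagged ligand on one cell binds a Notch receptor on its neighbour. The receptor is then cut, and its intracellular part enters the nucleus and joins the protein encoded by *Rbpj* to switch on targets such as *Hes1*. In the intestinal crypt, the repressor encoded by *Hes1* holds down *Atoh1*, the factor needed for goblet, enteroendocrine and other secretory cells, so that cells with active Notch signalling become absorptive and cells that escape it become secretory and carry the ligands *Dll1* and *Dll4*. *Gfi1* acts after *Atoh1* in the goblet lineage, and *Neurog3* starts the enteroendocrine lineage.

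The promoters of 9 of the 10 genes, all but *Hes1*, were read from RefSeq on the GRCm38.p6 build as the 250 bases before the start site. Those of *Atoh1*, of the ligands *Dll1* and *Dll4*, and of *Notch2*, the receptor whose level was most like that of *Hes1*, are shown 5′ to 3′ on the strand of the gene, since they stand on both sides of the comparison between Notch signalling and secretory fate. Capitals mark matches to 2 patterns of binding sites for proteins of the Hes and Atoh1 class, the E-box CANNTG and the N-box CACNAG, searched on both strands. The windows are chr6:64728875-64729124 (forward strand) for *Atoh1*, chr17:15376933-15377182 (reverse strand) for *Dll1*, chr2:119325534-119325783 (forward strand) for *Dll4* and chr3:98013288-98013537 (forward strand) for *Notch2*.
Atoh1: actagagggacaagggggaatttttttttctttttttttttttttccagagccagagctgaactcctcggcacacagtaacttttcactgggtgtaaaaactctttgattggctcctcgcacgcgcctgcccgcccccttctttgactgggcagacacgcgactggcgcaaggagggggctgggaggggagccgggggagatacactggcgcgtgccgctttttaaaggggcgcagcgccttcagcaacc
Dll1: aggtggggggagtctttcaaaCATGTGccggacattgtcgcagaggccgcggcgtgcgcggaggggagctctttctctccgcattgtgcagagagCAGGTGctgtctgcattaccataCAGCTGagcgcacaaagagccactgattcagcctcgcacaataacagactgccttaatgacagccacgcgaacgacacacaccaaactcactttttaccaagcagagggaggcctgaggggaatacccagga
Dll4: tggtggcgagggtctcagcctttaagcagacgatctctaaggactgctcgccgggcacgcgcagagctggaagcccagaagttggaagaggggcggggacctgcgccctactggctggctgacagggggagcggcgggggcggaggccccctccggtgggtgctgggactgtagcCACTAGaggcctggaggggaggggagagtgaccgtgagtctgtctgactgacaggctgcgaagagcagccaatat
Notch2: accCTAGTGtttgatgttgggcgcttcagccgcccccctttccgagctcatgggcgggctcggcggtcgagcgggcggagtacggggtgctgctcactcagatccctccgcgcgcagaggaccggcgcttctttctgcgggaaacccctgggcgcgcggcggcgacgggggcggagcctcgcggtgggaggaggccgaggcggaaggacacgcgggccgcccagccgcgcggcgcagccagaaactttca

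The E-box was found in 5 of the 9 windows, 3 times in *Dll1*, against 66.2% of the 32851 promoters searched the same way. The N-box was found in 3 of the 9, in *Dll4*, *Notch1* and *Notch2*, against 36.7% of all promoters. The core of the site bound by the protein of *Rbpj*, TGGGAA, was found in 1 of the 9, the *Rbpj* window itself, and in 21.6% of all promoters. *Hes1* had no window, so its promoter was not searched for any of these patterns. None of these patterns can match the same 6 bases as another. The window of *Atoh1* held no match to any of them, which says only that these letters are absent from these bases. The start sites that RefSeq gives for *Notch1*, *Notch2*, *Jag1*, *Gfi1* and *Rbpj* lie inside the genes as annotated by GENCODE.

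The identifiers given here, with their version numbers, are those of the count files. Positions are those of the GENCODE M21 annotation of GRCm38, matched without the version number. *Hes1* (ENSMUSG00000022528.7) lies at chr16:30064384-30067796 and *Atoh1* (ENSMUSG00000073043.4) at chr6:64729125-64731245, both on the forward strand. The ligand genes are *Dll1* (ENSMUSG00000014773.7) at chr17:15367354-15376872, *Dll4* (ENSMUSG00000027314.6) at chr2:119325784-119335962 and *Jag1* (ENSMUSG00000027276.7) at chr2:137081456-137116644. The receptor genes are *Notch1* (ENSMUSG00000026923.9) at chr2:26457903-26516663 and *Notch2* (ENSMUSG00000027878.10) at chr3:98013527-98150361, and their partner *Rbpj* (ENSMUSG00000039191.6) lies at chr5:53466152-53657362. The secretory factors *Gfi1* (ENSMUSG00000029275.11) and *Neurog3* (ENSMUSG00000044312.3) lie at chr5:107716657-107726036 and chr10:62133090-62134763. Counts were given per gene, from an annotation not named in the sources used here, so the counted exons may differ from those of M21. The strand setting of the counting is not given in the sources used here, so reads of genes that overlap on the opposite strand may not be separable. This bears most on *Neurog3*, counted at between 45 and 217 reads per mouse, which overlaps *Fam241b* with a median of 977.5 reads.

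The total count on genes was between 50313805 and 197914821 per library. CPM are counts scaled to library size, with TMM factors between 0.906 and 1.10. Before these factors, 3 counts were worth 0.0152 to 0.0596 CPM. *Apc* itself, the mutated gene, differed by a log2 fold change of 0.046, and these counts do not separate the mutant allele. The APCMin/+ mice M10_2 and M13_1 stood apart from the other 10: *Hoxb13*, a gene of the hindmost body axis, was counted at 378 and 275 CPM in them, and the 3 genes *Hoxa13*, *Hoxb13* and *Hoxd13* together at up to 2.86 CPM in the others. Results are therefore given with and without these mice. The labels name the tissue as mucosa, and colonic epithelium was present by its markers: goblet genes summed to between 9317 and 21072 CPM and absorptive genes to between 8338 and 44639 CPM. Smooth muscle markers summed to between 4584 and 7152 CPM, so the samples also held muscle. In such bulk tissue, fewer cells of a type and less RNA per cell cannot be told apart.

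Per length of transcript, *Hes1* and *Atoh1* were the highest of the 10 genes, with medians over the 12 mice of 25.1 and 22.3 RPKM (reads per kilobase, scaled to library size), and their ranges overlapped. *Hes1* was above *Atoh1* on this scale in 6 of 12 mice. *Rbpj* followed at 7.18 RPKM, below *Atoh1* and above *Jag1* in every mouse with no overlap of the ranges. *Jag1*, *Dll4*, *Dll1*, *Notch2*, *Gfi1* and *Notch1* came next with medians of 3.39, 3.37, 2.81, 2.61, 2.33 and 1.91 RPKM, and each overlapped its neighbours in this order. *Jag1* was above *Dll4* in only 4 of 12 mice, so their order by median does not hold in most mice. *Neurog3* was the lowest at 0.524 RPKM, apart from *Notch1* in every mouse. The genes also differed in how much they varied between mice. The highest CPM was 3.33 times the lowest for *Hes1*, 2.93 times for *Notch1* and 2.64 times for *Notch2*, but 1.41 times for *Jag1* and 1.30 times for *Rbpj*. The SD of log2 CPM within genotypes was 0.50 for *Hes1* and 0.13 for *Rbpj*, so that differences between genotypes could be estimated more closely for *Rbpj* and *Jag1* than for *Hes1* or the receptors.

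**Figure D1:**
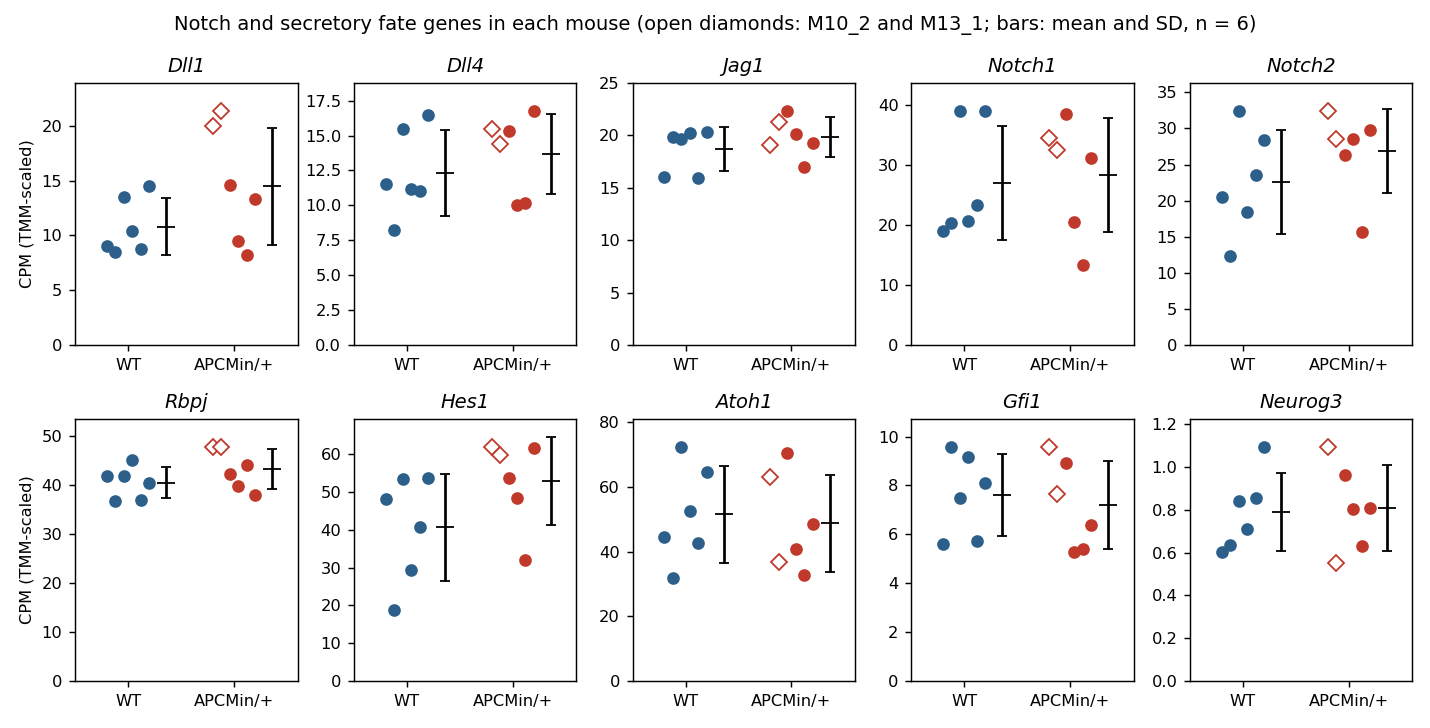
TMM-scaled CPM of the 10 genes in each mouse, by genotype. Filled circles are mice, open diamonds are the APCMin/+ mice M10_2 and M13_1, and bars give the mean and SD of 6 mice. The genotypes overlap in every panel, and M10_2 and M13_1 are the highest of all mice for *Dll1* and *Rbpj*.

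None of the 10 genes was called different between genotypes. In edgeR's quasi-likelihood test over the 20311 genes, 0 of the 10 had a Benjamini-Hochberg FDR under 0.05 with a fold change of at least 2, where the share of all genes called was 0%. At an unadjusted p under 0.05, 0 of the 10 passed, against 5.27% of all genes tested. In 0 of the 10 were all mice of one genotype above all mice of the other, against 0.118% of all genes. DESeq2 called 27 genes and edgeR's exact test 12 over the whole table, and neither called any of the 10. Of the 10 log2 fold changes, 8 were positive (higher in APCMin/+), as were 9837 of the 20311 of all genes, and their median was 0.092 against -0.0077 over all genes. Without M10_2 and M13_1, 7 were positive and the median was 0.049. Over the 10 genes, the lowest limit of any 95% interval was a fold of 0.675, that of *Atoh1*, and the highest was 1.93, that of *Dll1*, so a change of 2-fold or more lay outside the interval of each gene in this fit.

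**Figure D2:**
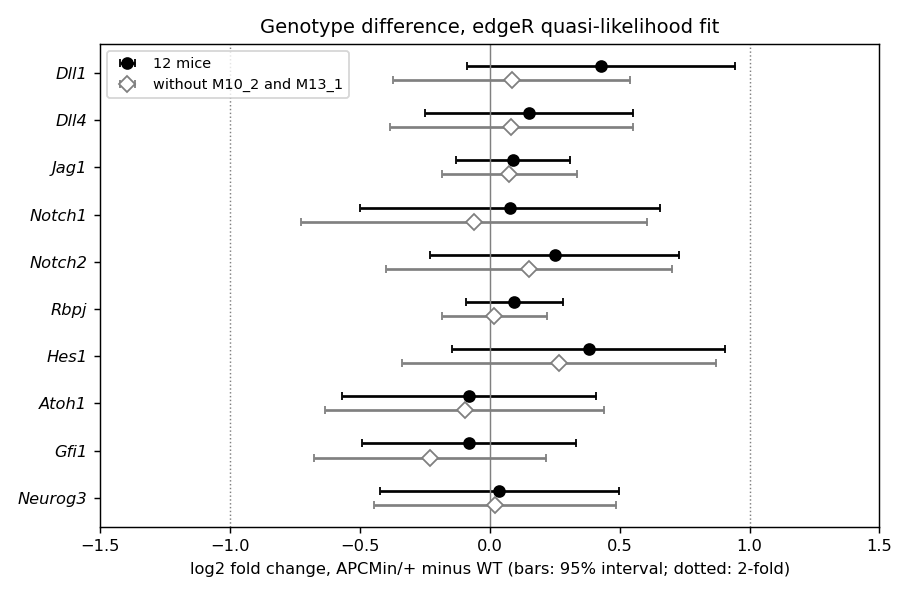
Log2 fold change of each gene, APCMin/+ minus WT, from the quasi-likelihood fit, with 95% intervals, for all 12 mice (filled circles) and without M10_2 and M13_1 (open diamonds). Dotted lines mark a 2-fold change. Every interval crosses 0, and the estimate of *Dll1* moves from 0.43 to 0.085 when the 2 mice are left out.

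Among the ligands, *Dll1*, which marks early secretory cells in the crypt, was counted at a lowest, median and highest value of 8.25, 14.0 and 21.4 CPM in APCMin/+ mice and of 8.49, 9.70 and 14.5 CPM in WT mice. The APCMin/+ mice M10_2 and M13_1, at 19.97 and 21.4 CPM, were well above all WT mice, M18_2b, at 14.6 CPM, was just above the highest of them, and the other 3 lay within or below the WT range. Its log2 fold change of 0.43 (SE 0.24, 95% interval -0.087 to 0.95, FDR = 0.908 in edgeR's quasi-likelihood test) was the largest of the 10, and was 0.085 (SE 0.21) without these mice. Leaving out M2_A, the APCMin/+ mouse with the lowest *Dll1*, gave 0.56, with the only unadjusted p under 0.05 of any of the 10 genes in the fits that left out 1 mouse. *Dll4*, the other Delta ligand of the crypt and also a ligand of vessels, had 13.7 ± 2.89 CPM in APCMin/+ and 12.3 ± 3.08 CPM in WT mice (SD, n = 6 each), with a log2 fold change of 0.15 (SE 0.19). *Jag1*, a ligand of several epithelial and vascular tissues, had 19.8 ± 1.88 and 18.6 ± 2.10 CPM (SD, n = 6 each), a log2 fold change of 0.089 (SE 0.10). *Dll4* and *Jag1* thus differed by less than the SD between mice.

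The receptor *Notch2* was counted at a lowest, median and highest value of 15.7, 28.6 and 32.4 CPM in APCMin/+ mice and of 12.3, 22.0 and 32.5 CPM in WT mice. Both genotypes thus covered nearly the same range, with M2_A far below the other APCMin/+ mice. The log2 fold change was 0.25 (SE 0.22, 95% interval -0.23 to 0.73, FDR = 0.910 in the same test). *Notch1* had 28.4 ± 9.50 CPM in APCMin/+ and 26.9 ± 9.49 CPM in WT mice (SD, n = 6 each), with a log2 fold change of 0.077 (SE 0.27) that became -0.059 without M10_2 and M13_1. *Rbpj*, at 43.2 ± 4.06 and 40.4 ± 3.21 CPM (SD, n = 6 each), was the steadiest of the 10, and its log2 fold change of 0.095 had an SE of 0.087. Without the 2 mice that stood apart, which held its highest values of 47.6 and 47.7 CPM, it was 0.018.

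*Hes1*, the direct target of the pathway, was counted at a lowest, median and highest value of 31.9, 56.8 and 62.0 CPM in APCMin/+ mice and of 18.7, 44.4 and 53.7 CPM in WT mice. In 5 of 6 APCMin/+ mice it was above the WT median, and no WT mouse reached the APCMin/+ median. The means were 53.0 ± 11.6 and 40.7 ± 14.1 CPM (SD, n = 6 each). The log2 fold change of 0.38 (SE 0.24, 95% interval -0.14 to 0.91, FDR = 0.908 in edgeR's quasi-likelihood test) did not pass the test, and was 0.27 (SE 0.28) without M10_2 and M13_1.

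*Atoh1*, which *Hes1* opposes, was counted at a lowest, median and highest value of 32.7, 44.8 and 70.5 CPM in APCMin/+ mice and of 32.0, 48.6 and 72.5 CPM in WT mice. These ranges were nearly the same. Its log2 fold change was -0.079 (SE 0.23, 95% interval -0.57 to 0.41, FDR = 0.953 in the same test), and -0.097 without M10_2 and M13_1. *Gfi1* had 7.20 ± 1.82 and 7.61 ± 1.68 CPM in APCMin/+ and WT mice (SD, n = 6 each), with a log2 fold change of -0.079 (SE 0.19) that was -0.23 (SE 0.21) without the same mice. *Neurog3*, made briefly by few cells, had 0.809 ± 0.202 and 0.791 ± 0.181 CPM (SD, n = 6 each), with a log2 fold change of 0.037 (SE 0.21). The directions of *Atoh1*, *Gfi1*, *Neurog3* and *Notch1* changed sign in at least 1 of the fits that left out 1 mouse.

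The balance of *Hes1* and *Atoh1* was taken in each mouse as the ratio of their CPM. The ratio was 1.27 in M8_2, 0.984 in M10_2, 0.761 in M18_2b, 1.63 in M13_1, 0.976 in M2_A and 1.19 in M20_1, the APCMin/+ mice. In the WT mice it was 0.739 in M17_2, 0.831 in M19_1, 1.08 in M16_1, 0.559 in M18_2a, 0.583 in M17_1 and 0.953 in M18_b. *Hes1* was thus above *Atoh1* in 3 of 6 APCMin/+ mice and in 1 of 6 WT mice on the CPM scale, and the genotypes overlapped, with medians of 1.08 and 0.783. Since the ratio is taken within a mouse, it does not depend on the scaling of the library. The genes have transcripts of 2037 and 2088 bases, which would raise every ratio by the same small factor per length and leave the difference between genotypes as it is. Per length, the ratio also passed 1 in the APCMin/+ mice M10_2 and M2_A, at 1.008 and 1.0003, so the count of mice above 1 depends on the scale.

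**Figure D3:**
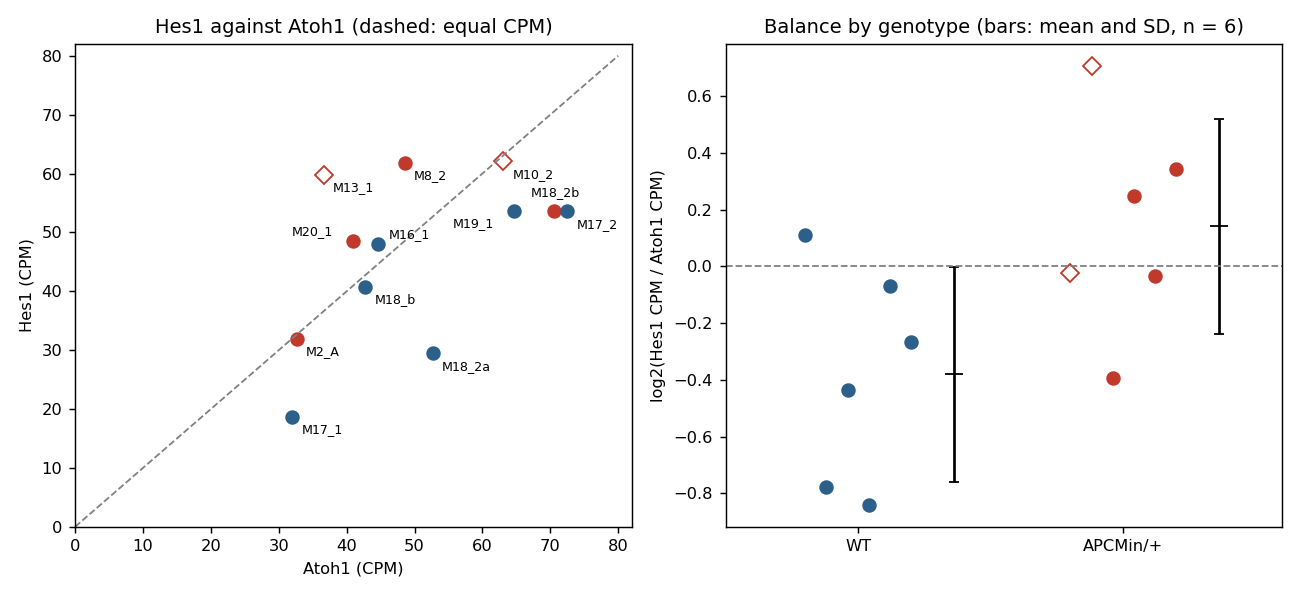
Left, CPM of *Hes1* against *Atoh1* in each mouse (red APCMin/+, blue WT, open diamonds M10_2 and M13_1), with a dashed line where both are equal. Right, log2 of their ratio by genotype, with the mean and SD of 6 mice. The ratio of CPM is above 1 in 3 APCMin/+ mice and 1 WT mouse, and it is highest in M13_1, at 1.63.

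On the log2 scale the ratio was 0.14 ± 0.38 in APCMin/+ and -0.38 ± 0.38 in WT mice (SD, n = 6 each), a difference of 0.52 (exact permutation test, two-sided, p = 0.0411, where the smallest p that 6 mice against 6 allow is 0.00216). The ratio was above the WT median in 5 of 6 APCMin/+ mice. A test on ranks gave the same p (exact permutation test, p = 0.0411). The call rested on single mice. Without M10_2 and M13_1 it was 0.42 (exact permutation test, p = 0.114). When 1 mouse was left out in turn it lay between 0.41 and 0.63, and the exact permutation p was above 0.05, between 0.0584 and 0.0844, without M8_2, M13_1, M20_1, M17_2, M19_1, M18_2a or M17_1. After the GC and length slopes of each library were removed it was 0.55 (exact permutation test, p = 0.0476). The mitochondrial share of the libraries, with which *Hes1* had r = -0.947 and *Atoh1* r = -0.578 over the 12 mice, lay between 4.35% and 8.46% in APCMin/+ and between 6.00% and 12.7% in WT mice, and its part in the ratio was not tested. Neither gene passed the test on its own in the fit across all genes.

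Across mice, *Hes1* and *Atoh1* did not move in opposite directions. Over the 12 mice, Pearson's r of their log2 CPM was 0.561 and Spearman's rho 0.476 (permutation test, p = 0.0532 and 0.121; adjusted over the 45 pairs of the 10 genes, 0.114 and 0.261). Without the 2 mice farthest from the median of *Atoh1* r was 0.545, and without M10_2 and M13_1 it was 0.662. When 1 mouse was left out in turn, r lay between 0.381, without M17_1, and 0.692, without M13_1. Both genes had a negative r with the mitochondrial share of the libraries (-0.947 for *Hes1* and -0.578 for *Atoh1*). The part of that share in the relation between the genes was not tested. Levels in bulk tissue also cannot show whether the genes oppose each other within single cells.

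Of the 45 pairs, 42 had a positive r, with a median of 0.512, and 12 had an adjusted permutation p of r under 0.05, each of them positive. The closest pair was *Hes1* with *Notch2*, with r = 0.937 and rho = 0.811 (permutation test, p = 4.00e-05 and 0.00229, adjusted 0.0018 and 0.0306). It was 0.874 without M17_1 and M18_2a, the mice farthest from the median of *Hes1*, and 0.929 without M10_2 and M13_1. *Dll4* went with *Notch1* (r = 0.852), *Hes1* (r = 0.846), *Notch2* (r = 0.819), *Dll1* (r = 0.801) and *Atoh1* (r = 0.754). *Atoh1* also went with *Notch1* (r = 0.774) and *Neurog3* (r = 0.771). The other pairs among the 12 were *Dll1* with *Notch1* (0.809), *Notch2* (0.713) and *Hes1* (0.706), and *Notch1* with *Notch2* (0.759). No pair with *Jag1*, *Gfi1* or *Rbpj* was among them, and the lowest r was that of *Hes1* with *Gfi1*, at -0.146. By rho, some of the 12 had an adjusted permutation p above 0.05. These were *Dll1* with *Dll4* (0.0643) and *Notch2* (0.0661), *Dll4* with *Notch2* (0.0661), *Notch1* with *Notch2* (0.0643) and *Atoh1* with *Neurog3* (0.0643). The number of pairs called by r was sensitive to single mice. It was 6 without M2_A, 7 without M17_2 or M19_1 and 19 without M13_1, and 11 without both M10_2 and M13_1.

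These correlations moved with a property of the libraries. The dependence of a library's counts on the GC content of the transcripts, given as a slope in log2 per 10 percentage points of GC against the mean of all mice, ran from -0.45 in M17_1 to 0.23 in M10_2, and the share of mitochondrial transcripts from 4.35% in M10_2 to 12.7% in M17_1. The level of *Notch2* had r = 0.941 with the GC slope, *Hes1* 0.926, *Dll4* 0.880, *Notch1* 0.752, *Atoh1* 0.746, *Neurog3* 0.687 and *Dll1* 0.627, with a permutation p adjusted over 20 relations under 0.05 for these 7. *Jag1*, *Rbpj* and *Gfi1* had r of 0.117, 0.144 and -0.039. With the mitochondrial share, *Hes1* had r = -0.947, *Notch2* -0.921, *Dll4* -0.855, *Dll1* -0.763 and *Notch1* -0.650, and these 5 had an adjusted permutation p under 0.05. When the GC and length slopes of each library were removed, a step chosen after seeing the data, 1 of the 45 pairs kept an adjusted p of r under 0.05. This was *Hes1* with *Notch2* (r = 0.884, adjusted permutation p = 0.018). Its rho was 0.706, with an adjusted permutation p of 0.118, and no pair had a lower one by rho. *Atoh1* with *Neurog3* had r = 0.739 (adjusted permutation p = 0.0891). This step shifts each gene only by its own GC content and length. The relations with the GC slope and the mitochondrial share were not computed again after it. A pair that kept its r is therefore not shown to be free of library quality. The part of RNA or library quality in these correlations was not tested beyond this.

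**Figure D4:**
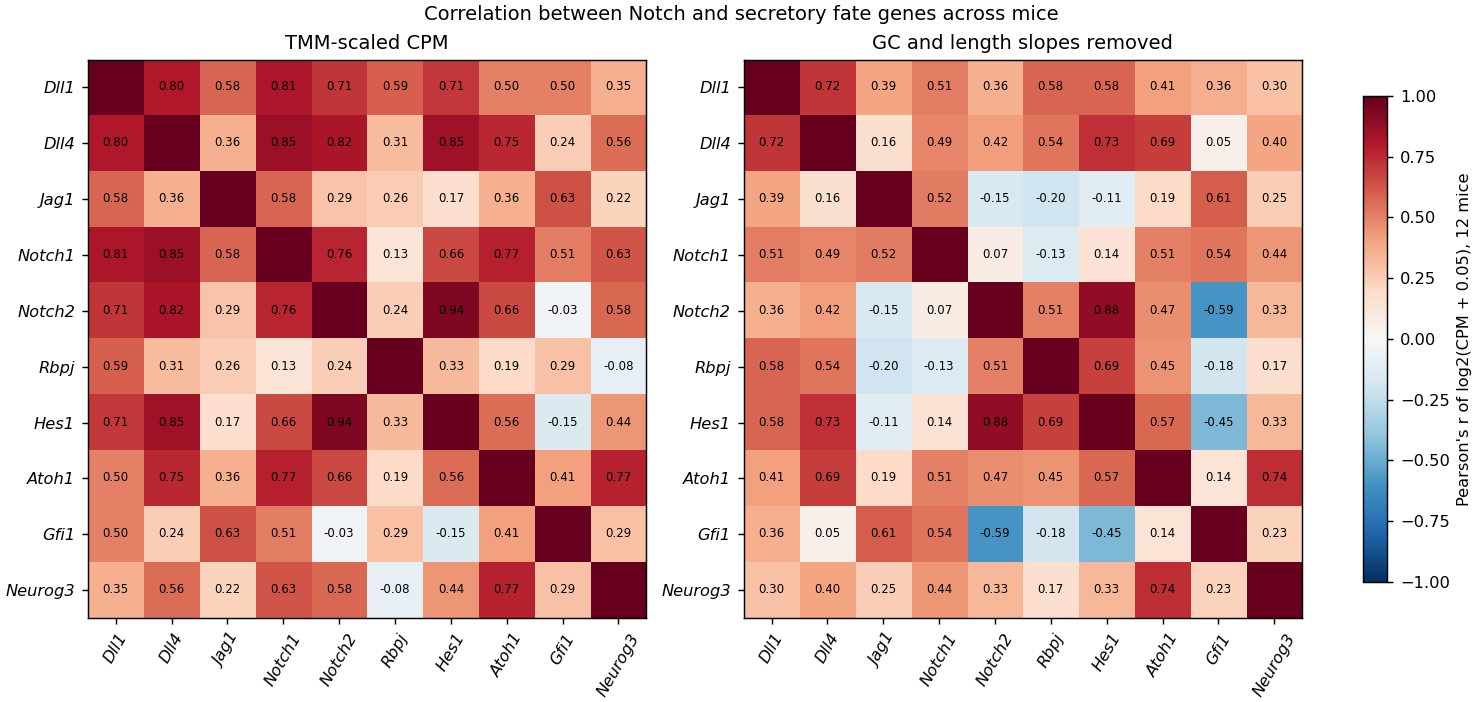
Pearson's r over 12 mice between the log2(CPM + 0.05) values of each pair of genes, before (left) and after (right) removal of each library's GC and length slopes. Red is positive and blue negative. The block of *Dll1*, *Dll4*, *Notch1*, *Notch2* and *Hes1* is paler on the right, while *Hes1* with *Notch2* stays at 0.884.

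Marker genes of 9 cell types were summarised in each mouse as the mean log2 CPM of a list and set against the 10 genes, giving 90 relations. Of these, 5 had an adjusted permutation p of Pearson's r under 0.05, and all 5 were with the list of crypt stem cell genes (*Lgr5*, *Ascl2*, *Smoc2*, *Axin2*, *Rgmb* and *Ephb2*). They were *Dll4* (r = 0.925), *Notch2* (0.910), *Notch1* (0.900), *Dll1* (0.893) and *Hes1* (0.863). The adjusted permutation p of rho was 0.0036 for *Hes1* and 0.0054 for *Dll1*. It was 0.0909 for *Notch1*, 0.101 for *Notch2* and 0.119 for *Dll4*, so these were called by r only. For *Hes1* rho was 0.930, and r was 0.875 without M17_1 and M18_2a and 0.837 without M10_2 and M13_1. *Atoh1* had r = 0.711 with the stem list (adjusted permutation p = 0.109), 0.265 with the goblet list and 0.045 with the enteroendocrine list. With the goblet list, *Gfi1* had r = 0.354 and *Neurog3* r = 0.551 (adjusted permutation p = 0.529 and 0.342). For *Neurog3* this r was 0.239 without M10_2 and M13_1, and 0.742 with the GC and length slopes removed (adjusted permutation p = 0.0800). The secretory factors *Atoh1*, *Gfi1* and *Neurog3* thus had no called relation with the lists of mature secretory cells. *Dll1* had r = -0.753 with the absorptive list (adjusted permutation p = 0.0646), but -0.310 without M10_2 and M13_1. In these mice the absorptive genes summed to 8338 and 10452 CPM, against 20976 or more in the other mice. The sum weighs genes by level, while r used the mean log2 CPM. *Car1* was at 966 and 2540 CPM in these mice, against 14620 or more in WT mice. *Krt20*, *Fabp2*, *Slc51a* and *Guca2a* were also below all WT mice in both. *Car4*, *Slc26a3*, *Aqp8* and *Muc3* were instead above their WT medians in both. *Rbpj* had r = 0.707 with the endothelial list (adjusted permutation p = 0.109). With the GC and length slopes removed, 4 relations were called by r, those of *Hes1*, *Dll1* and *Dll4* with the stem list and that of *Rbpj* with the endothelial list (r = 0.771). Their adjusted permutation p of rho was 0.0144 for *Hes1*, 0.0702 for *Dll1* and 0.174 for both *Dll4* and *Rbpj*. The r of *Notch1* and *Notch2* with the stem list was then 0.484 and 0.730.

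**Figure D5:**
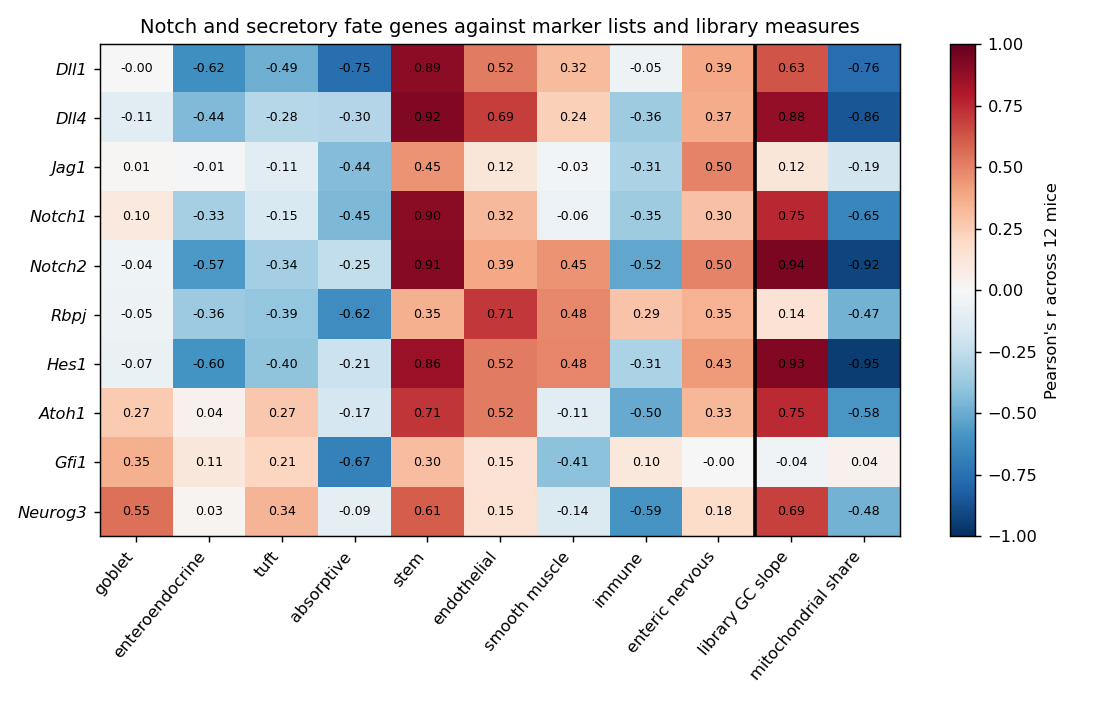
Pearson's r over 12 mice of each gene with the mean log2 CPM of 9 marker lists and, right of the black line, with the GC slope and the mitochondrial share of the library. The stem column is the darkest among the marker lists, up to 0.925 for *Dll4*, and the same genes are at 0.627 or more with the GC slope.

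Among genes with a mean of at least 1 CPM, the 5 whose log2 CPM was most like that of *Atoh1* over the 12 mice were *Foxa3* (r = 0.952), *Orai2* (0.942), *Dapk1* (0.941), *Zfp629* (0.927) and *C030014I23Rik* (0.914). *Foxa3* encodes a forkhead factor of secretory epithelium. For *Hes1* they were *Col4a2* (0.982), *Zbed3* (0.982), *Hnrnpa0* (0.980), *Sept9* (0.977) and *Naglu* (0.977), of which *Col4a2* encodes a collagen of basement membranes. All 5 of each were among the 100 most alike without M10_2 and M13_1. The remaining mice had also served to pick these genes, so this is not a separate check. An r of at least 0.7 with *Atoh1* was found for 3 of the other 9 fate genes, *Notch1*, *Neurog3* and *Dll4*, against 4.64% of all genes tested. With *Hes1* it was found for 3 of 9, *Notch2*, *Dll4* and *Dll1*, against 14.4% of all genes. Without M10_2 and M13_1 these counts were 5 of 9 against 10.4%, and 2 of 9 against 18.3%. Both genes also went with the GC slope of the libraries, *Atoh1* with r = 0.746 and *Hes1* with r = 0.926. The part of the GC slope in these likenesses was not tested.

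The rest of the Notch pathway was followed in a list of 42 further genes, from ligands, receptors and processing enzymes to targets. Of the 42, 1 was higher and 1 lower in APCMin/+ mice at an unadjusted p under 0.05, beside the 5.27% of all genes, and 0 had an FDR under 0.05. The median log2 fold change was 0.085. *Heyl*, a target of Notch in vessel wall cells, had 3.08 ± 1.02 and 1.73 ± 0.808 CPM in APCMin/+ and WT mice (SD, n = 6 each), a log2 fold change of 0.84 (SE 0.32, FDR = 0.908 in edgeR's quasi-likelihood test) that was 0.56 without M10_2 and M13_1. *Hes7*, best known from the segmenting embryo, had 0.217 ± 0.0902 and 0.371 ± 0.145 CPM (SD, n = 6 each), a log2 fold change of -0.77, and of -0.52 without these mice. Among genes that did not pass the unadjusted threshold, named here after their values were seen, *Notch4*, a receptor of endothelium, had a log2 fold change of 0.76, with levels of 14.4 CPM in M10_2 and 11.8 in M13_1, and of 0.039 without them. *Nrarp*, which feeds back on Notch, was at 24.0 ± 5.04 and 22.6 ± 7.45 CPM and *Hey1*, a target in vessels and heart, at 3.08 ± 0.486 and 3.03 ± 0.595 CPM (SD, n = 6 each). *Hes5*, a target in neural tissue, was at 0.0965 and 0.126 CPM on average, not far above what 3 counts are worth.

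Of 20 further transcription factors of the secretory lineages, 2 were higher and 2 lower at an unadjusted p under 0.05, against 5.27% of all genes tested, and 0 had an FDR under 0.05, with a median log2 fold change of 0.097. *Spdef*, which matures goblet cells after *Atoh1*, had 56.2 ± 26.1 CPM in APCMin/+ and 90.1 ± 21.0 CPM in WT mice (SD, n = 6 each), a log2 fold change of -0.68 (FDR = 0.908 in edgeR's quasi-likelihood test) that was -0.35 without M10_2 and M13_1. *Pax4*, an enteroendocrine factor, had 0.812 ± 0.137 and 1.14 ± 0.324 CPM (SD, n = 6 each), a log2 fold change of -0.49, and of -0.50 without these mice. *Foxa2*, a forkhead factor of secretory epithelium, had 16.5 ± 13.2 and 6.57 ± 2.17 CPM (SD, n = 6 each) with a log2 fold change of 1.33. Its level was 38.3 CPM in M10_2 and 26.9 in M13_1, without which the log2 fold change was 0.37. Without M10_2 and M13_1, no gene of this list and none of the Notch list had an unadjusted p under 0.05 in the edgeR fit. Of the 9 genes of mature goblet cells 0 passed the unadjusted threshold, with the smallest p for *Muc2*, the main mucin of the colon, and *Clca1*, a secreted goblet protein, at log2 fold changes of -0.69 and 0.74. Without M10_2 and M13_1, which held 8931 and 4976 CPM of *Clca1*, these were -0.31 and -0.38, so that *Clca1* changed sign. Of the 9 enteroendocrine genes 1 was higher at that threshold, *Insl5*, a hormone of the distal bowel, at 142 CPM in M10_2 and 75.5 in M13_1, with a log2 fold change of -0.27 without these mice. Of the 6 stem genes, *Smoc2* passed it, higher by a log2 fold change of 0.53, and by 0.15 without the same mice. The smooth muscle list had 3 of 8 genes higher, *Des*, *Cnn1* and *Actg2*, against the same 5.27% of all genes, and 2 of 8 without M10_2 and M13_1, *Des* and *Actg2*. The absorptive, tuft, endothelial, immune, enteric nervous and squamous lists had 0 genes past it in either direction. Among their genes with the smallest p were *Slc26a3* and *Car4* (absorptive, log2 fold changes 0.42 and 0.57), *Trpm5* (tuft, -0.39), *Esam* and *Lyve1* (endothelial, 0.21 and -0.11), *Cd8a* and *Itgax* (immune, -0.70 and 0.29), *Uchl1* (enteric nervous, 0.39) and *Krt13* and *Sbsn* (squamous, 0.36 and -0.20). Without M10_2 and M13_1, *Car4* changed sign to -0.20 and *Itgax* to -0.0073, and *Slc26a3* was at 0.24, *Trpm5* at -0.27, *Esam* at 0.081, *Lyve1* at -0.12, *Cd8a* at -0.40, *Uchl1* at 0.36, *Krt13* at 0.21 and *Sbsn* at -0.088.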

How the data were processed

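Proximal colon RNA from 6 APCMin/+ and 6 WT mice, each a separate mouse, was sequenced (paired reads). The authors used STAR 2.3.0 to align reads to GRCm38 (GRCm38.p2 in the submitters' processing notes) and deposited 1 table of raw counts per gene from featureCounts for each mouse, with the gene length as another column. The version, annotation and strand setting of featureCounts are not given in the sources used here. Total counts were between 50313805 and 197914821 per library, which limits values below 0.0152 to 0.0596 CPM (3 counts, before TMM factors, counting error only).

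Symbols were taken from GENCODE M21. The 10 genes, the lists of other genes and the tests were chosen with earlier results of these data known. Genotypes were compared with edgeR 4.0.16 (R 4.3.3; TMM, quasi-likelihood test, a minimum of 10 counts in 3 or more mice, Benjamini-Hochberg adjustment over all 20311 genes), with DESeq2 1.42.0 and edgeR's exact test as alternatives. Standard errors come from each fold change and the F value of its test. The named genes are the 10, the genes of each other list with an unadjusted p under 0.05 or, failing any, the 2 with the smallest p, and the 5 genes most like *Hes1* and *Atoh1*. A few genes that this rule names are not reported here. The *Hes1* to *Atoh1* ratio was tested by exact permutation, two-sided. Correlations used log2(CPM + 0.05) and 100000 permutations, adjusted over the relations computed. GC and length slopes were fitted per library over 13347 genes. The scripts were tested on simulated data. Mice are named by their sample labels, which give no sequencing batch or shipment, so no comparison within batches was made.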

Additional observations from a re-analysis of the deposited data

Results flagged for a closer look

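The *Notch2* level of the APCMin/+ mouse M2_A, 15.7 CPM, lay far below the other 5 APCMin/+ mice, whose values began at 26.3 CPM: the gap took a share of 0.636 of the range of the group. This was the 1 such value in 22 groups of 6 mice examined, and chance alone gives about 1 in 20 groups. M2_A also had the lowest GC slope of the APCMin/+ libraries, -0.23 log2 per 10 percentage points, and their highest mitochondrial share, 8.46%. The part of these in the low value was not tested.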

How the results depend on the processing

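The number of the 10 genes called was 0 under all 20 alternatives run. Over all genes, 27 were called by DESeq2 and 12 by edgeR's exact test against 0 by the quasi-likelihood test, and 0 in each fit without 1 mouse. The log2 fold change of *Notch1* became -0.059 without M10_2 and M13_1 and -0.13 with a GC and length offset added after seeing the data. Leaving out 1 mouse in turn gave ranges of -0.21 to 0.043 for *Atoh1*, -0.029 to 0.23 for *Notch1*, -0.18 to 0.011 for *Gfi1* and -0.071 to 0.15 for *Neurog3*, and changed the sign of none of the other 6. The *Hes1* to *Atoh1* difference was 0.42 without M10_2 and M13_1 (exact permutation test, p = 0.114) and between 0.41 and 0.63 without 1 mouse, with exact permutation p between 0.0173 and 0.0844. Correlated pairs called by r numbered 12 in the values reported, 19 when CPM was scaled by total counts only, 1 with the GC and length slopes removed and 6 to 19 without 1 mouse. Relations with marker lists called by r numbered 5, 8 with total counts only, and 5 to 8 without 1 mouse, the highest without M13_1. In the order by RPKM, 2 genes changed rank without TMM factors and 2 without M10_2 and M13_1. The causes of these shifts were not tested. No paired analysis was possible because the mice carry no shared replicate numbers in the labels. Depth limits *Neurog3* most, at 45 to 217 counts per mouse.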
